A study of Mus musculus with 20 samples.

Results

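The neurotrophic ligands *Gdnf*, *Nrtn*, *Artn*, *Bdnf*, *Ntf3* and *Edn3* were followed in mesenchymal cells of the mouse gut. They were chosen by name, with earlier results of these data known, as secreted factors that act on enteric neurons or their neural crest precursors. All 6 were found among the 43280 genes of the count tables. RNA was measured in 12 libraries of sorted GFP+ cells, 8 embryonic and 4 adult, with 2 in each group. The embryonic groups were the stomach and the intestine at E13.5, midway through gut organogenesis, of *Bapx1*-cre;*Rosa26*mTmG control embryos and of *Eed*fl/fl;*Bapx1*-cre;*Rosa26*mTmG embryos (*Eed* KO). The adult groups came from the small intestine of tamoxifen-treated mice, *Pdgfrβ*-CreERT2/+;*Rosa26*mTmG as control and *Pdgfrβ*-CreERT2/+;*Eed*fl/fl;*Rosa26*mTmG as *Eed* KO. The labels give the strain as C57BL/6 throughout, while the study's reporting summary lists mixed backgrounds for several of the alleles. Accessible chromatin was given as 1 list of ATAC-seq peaks for each embryonic condition.

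EED is a core subunit of Polycomb Repressive Complex 2 (PRC2), which places the repressive mark H3K27me3 on chromatin. The mTmG reporter switches from membrane Tomato to membrane GFP in cells that have expressed Cre and in their descendants, so the sorted cells were defined by the Cre line. *Bapx1*-cre is active in the mesenchyme of the developing gut, and *Pdgfrβ*-CreERT2 in perivascular and stromal cells after tamoxifen. The labels do not say how many animals went into a library, so p-values measured the spread between these libraries only. All groups carried a Cre allele and the reporter.

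The enteric nervous system forms from neural crest cells that migrate along the gut and differentiate within its mesenchyme, which supplies many of the signals they need. GDNF, neurturin and artemin bind GFRA co-receptors and signal through the receptor tyrosine kinase RET, and loss of GDNF or RET leaves the bowel without enteric neurons. BDNF and neurotrophin-3 are made as proproteins, cleaved by convertases such as furin, and bind TRKB (*Ntrk2*) and TRKC (*Ntrk3*), with p75 (*Ngfr*) as a shared receptor. Endothelin-3 acts through EDNRB on the crest cells and keeps them from differentiating too early, and mutations of either cause colonic aganglionosis.

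*Eed* itself was read first, as a check of the labels. As CPM, the gene counts scaled to equal library totals after TMM adjustment, it stood at 38.1 and 40.1 in the control intestine and at 10.7 and 8.59 in its *Eed* KO counterpart. Stomach libraries had 40.1 and 41.5 CPM in controls and at 11.5 and 7.40 in *Eed* KO. It was lower in both organs, with log2 differences of -2.02 (adjusted p = 0.00464) and -2.11 (adjusted p = 0.00175) in edgeR's quasi-likelihood test. In the adult intestine *Eed* was at 29.7 and 33.4 CPM in controls and 25.7 and 25.05 CPM in the libraries labelled *Eed* KO. The adult groups did not overlap, but the log2 difference of -0.32 did not pass the test (adjusted p = 0.317). These counts cover the whole gene, and the study reports *Eed* deletion efficiency in adult pericryptal cells separately. Adult groups are named here as labelled.

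Gene counts per library ran from 30236159 to 39606157 in the embryo and from 11404712 to 15903642 in the adult, where a count of 3 was worth at most 0.263 CPM. Summed CPM of 7 mesenchyme markers lay between 11147 and 19206 in the embryonic libraries, between 8885 and 9189 in adult controls and between 2628 and 3733 in adult *Eed* KO. Markers of leukocytes and macrophages, 6 in all, summed to 3.98 to 12.7 CPM in the embryo, 519 to 611 in adult controls and 9485 to 11321 in adult *Eed* KO. The 12 markers of enteric neural crest, neurons and glia summed to 16.3 to 25.5 CPM in the embryo, to 4.68 to 5.47 in adult controls, where 4 of them were at 0, and to 18.5 to 23.8 in adult *Eed* KO, where 3 were at 0. Endothelial markers, 6 in all, summed to 14.4 to 19.4 CPM in the embryonic controls, 24.3 to 45.8 in embryonic *Eed* KO, 96.8 to 97.3 in adult controls and 149 to 220 in adult *Eed* KO. Over the embryonic libraries smooth muscle markers summed to 1820 to 5520 CPM, mesothelial markers to 333 to 561, epithelial markers to 66.3 to 120 and erythroid markers to 0.466 to 12.8. In the adult these sums were 1820 to 3707, 4.22 to 20.5, 27.8 to 57.8 and 0.805 to 4.41 CPM. In sorted bulk samples, a smaller share of cells of a type and less RNA per cell cannot be told apart.

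Levels of different genes were compared as TPM, which also divides by gene length. In the control intestine of the embryo *Gdnf* was the most abundant of the 6 ligands, at a mean of 80.0 TPM, followed by *Edn3* at 77.2, *Ntf3* at 27.0, *Nrtn* at 15.5, *Bdnf* at 9.69 and *Artn* at 4.16. None of these neighbours overlapped between their libraries. The control stomach kept *Gdnf* first, at 61.9 TPM, with *Edn3* at 40.8 and *Ntf3* at 35.4 overlapping, and placed *Bdnf* last at 3.37 TPM. In the *Eed* KO stomach *Edn3* (28.3 TPM), *Ntf3* (26.4 TPM) and *Gdnf* (25.4 TPM) overlapped. The adult control intestine had another order, with *Ntf3* at 204 TPM, *Edn3* at 21.1, *Artn* at 8.88, *Bdnf* at 5.22, *Gdnf* at 1.70 and *Nrtn* at 0.439. In the adult *Eed* KO libraries *Ntf3* (32.7 TPM) and *Bdnf* (31.7 TPM) overlapped at the top. Embryonic and adult libraries differed in kit, strandedness, Cre line and age and were scaled separately, so these orders stand side by side without a test.

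**Figure D1:**
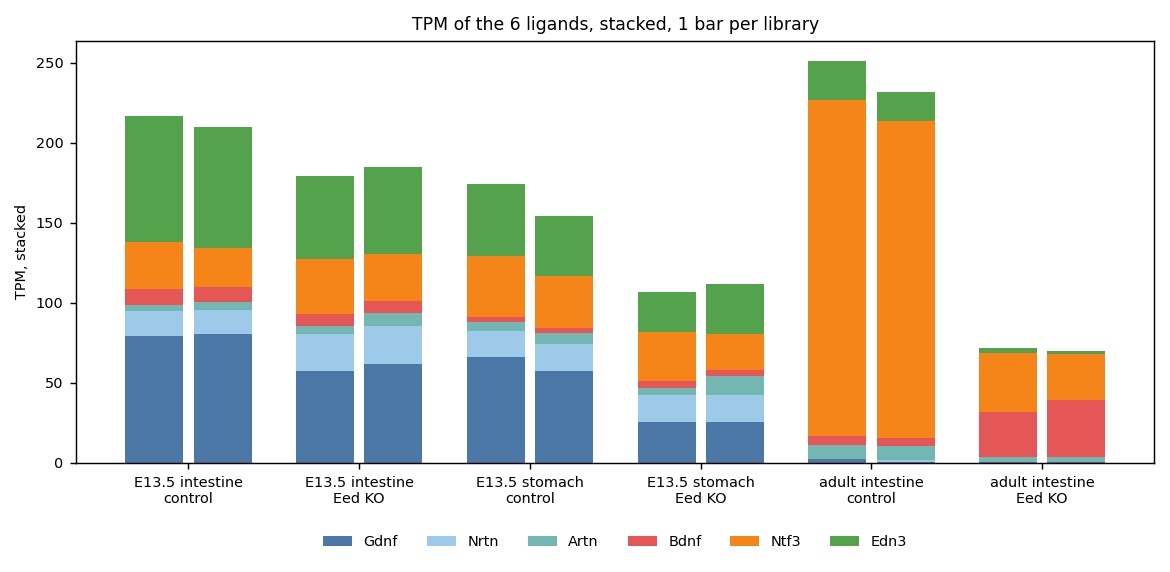
Stacked bars of the 6 ligands in TPM, with 1 bar per library and libraries ordered by group. *Gdnf* and *Edn3* make up most of the embryonic intestinal bars, and *Ntf3* most of the adult control bars, at a mean of 204 TPM.

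The summed level of the 6 ligands was 217 and 210 TPM in the 2 control intestine libraries, 179 and 185 in the *Eed* KO intestine, 174 and 154 in the control stomach and 107 and 112 in the *Eed* KO stomach. In the adult it was 251 and 232 TPM in controls and 71.6 and 69.7 TPM in *Eed* KO. The *Eed* KO libraries were below their controls in all 3 pairs of groups. TPM is a share of each library, so this direction depends on the scaling. When scaled by spike-in RNA, each of the 6 ligands was above control in both embryonic organs. These sums are descriptions and mostly follow *Gdnf*, *Edn3* and, in the adult, *Ntf3*.

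**Figure D2:**
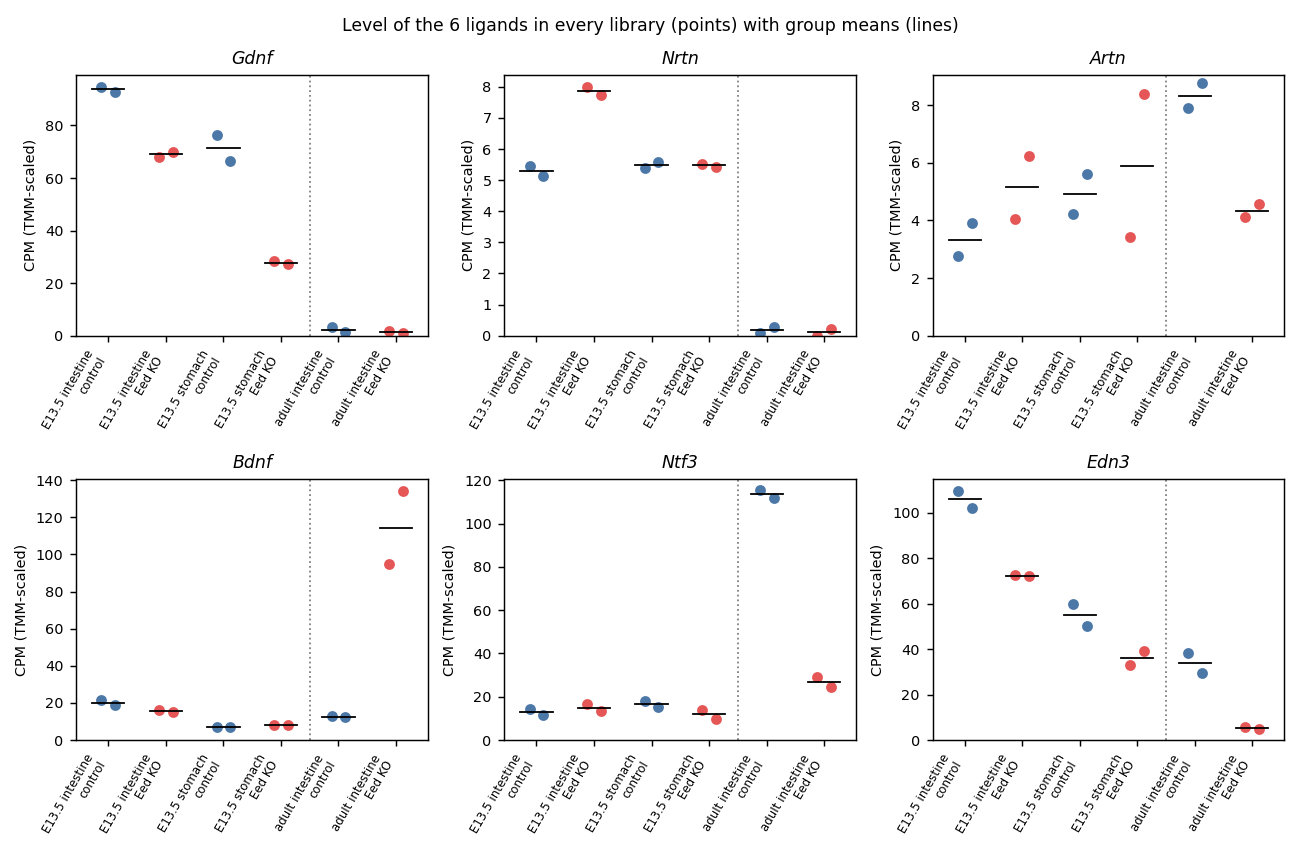
CPM after TMM scaling for each ligand in each library, by group, with lines at the group means, controls in blue and *Eed* KO in red. In the stomach, *Gdnf* was at 28.5 and 27.2 CPM in *Eed* KO against 76.6 and 66.5 CPM in controls, and in the adult *Bdnf* was at 94.6 and 134 CPM against 13.03 and 12.3 CPM.

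*Gdnf*, the ligand that draws crest cells into the gut and supports their survival, lies at chr15:7811011-7837575 (+ strand, mm10). RefSeq starts a transcript 963 bases before that gene start, and the 250 bases upstream of it are printed because a peak covered all of them in each of the 4 lists and because the gene passed the test in the stomach. Capitals mark CG dinucleotides, here 7 of them, against a median of 6 and quartiles of 2 and 16 over 32841 promoter windows of 27018 genes. The window is from RefSeq, GRCm38.p6, chr15:7809798-7810047, + strand, 5′ to 3′.
Gdnf promoter: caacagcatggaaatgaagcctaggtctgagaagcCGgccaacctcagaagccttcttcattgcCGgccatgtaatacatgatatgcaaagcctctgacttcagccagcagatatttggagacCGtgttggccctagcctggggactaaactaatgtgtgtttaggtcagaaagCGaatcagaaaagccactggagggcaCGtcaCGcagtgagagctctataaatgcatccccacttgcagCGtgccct
It held TATAAA 1 time on either strand, a motif found in 12.4% of all promoter windows.

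*Gdnf* was at 94.7 and 92.8 CPM in the control intestine and at 68.0 and 69.9 CPM in the *Eed* KO intestine. The groups did not overlap, with means of 93.7 ± 1.35 and 69.0 ± 1.33 CPM (SD, n = 2 each). The log2 difference of -0.44 (SE 0.10) missed the test (edgeR, adjusted p = 0.0671). In the stomach it was at 76.6 and 66.5 CPM in controls and at 28.5 and 27.2 CPM in *Eed* KO, the lowest embryonic level of this gene. There it fell by 1.36 on the log2 scale (SE 0.10, adjusted p = 0.000649), 2.57-fold, from a mean of 71.5 ± 7.09 to 27.8 ± 0.984 CPM, and the 10 alternatives other than spike-in scaling gave -1.46 to -1.26. *Gdnf* was the only ligand of the 6 to pass both thresholds of the comparison, an adjusted p under 0.05 and a log2 change above 1 in size, which 5.65% of the 16218 genes tested did in either direction, 4.84% upward and 0.808% downward. The change in the intestine less that in the stomach was 0.92 (SE 0.14, adjusted p = 0.0826), past the threshold of 0.2 set for that contrast but under its size of 1. Scaling by spike-in RNA moved all genes up together, with a median shift of 2.39 for the stomach and 1.84 for the intestine. *Gdnf* in the stomach then stood at 1.03 above control, 1.36 below that shift. Spike-in counts of the *Eed* KO stomach replicates lay far apart, 12108 against 4871, while those of the stomach controls were close, 37590 against 36020. No cell number is given for these counts, so 1.03 cannot be read as a rise per cell. In the stomach libraries smooth muscle markers summed to 2853 to 2970 CPM in controls and 1820 to 2059 in *Eed* KO. Mesothelial markers summed to 539.5 to 561 and 335 to 436 CPM. No marker of these lists passed both thresholds, and the members differed in direction. Mesothelial *Wt1* and *Msln* and the smooth muscle *Myh11* and *Des* had higher means in *Eed* KO, and the other members lower means. Endothelial markers were at 14.4 to 15.2 and 24.3 to 44.8 CPM, and mesenchymal markers overlapped, at 12679 to 15637 and 12952 to 19206 CPM. Their part in the *Gdnf* result was not tested.

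Between the control organs, the *Gdnf* level was higher in the intestine by 0.39 on the log2 scale (adjusted p = 0.067), without overlap but short of the test. In the adult, *Gdnf* had 46 and 18 counts in controls and 17 and 12 in *Eed* KO, or 3.37 and 1.26 CPM against 1.71 and 0.928 CPM. The adult groups overlapped (log2 difference -0.82, SE 0.72, adjusted p = 0.453). Peaks at the *Gdnf* start had a fold enrichment of 2.97 in the control intestine, 3.00 in the *Eed* KO intestine, 3.00 in the control stomach and 3.00 in the *Eed* KO stomach. Their lengths were 3811 and 3786 bp in the control intestine and stomach and 1790 and 1933 bp in the *Eed* KO lists. At *Nrtn*, *Artn*, *Bdnf* and *Edn3* the start peaks were longer in both *Eed* KO lists than in their controls. In the *Eed* KO lists a separate *Gdnf* peak began 1811 and 1823 bp after the start, where the control peaks ran on to 2440 and 2483 bp. Within 5000 bp of the start the control lists held 2 peaks covering 4254 and 4363 bp, and the *Eed* KO lists held 3 covering 2910 and 3022 bp. With 1 list of pooled replicates per condition, no error could be put on this difference. A further peak 14449 to 14630 bp inside the gene had higher enrichment, at 8.14, 8.85, 6.93 and 6.71 in the same order.

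*Nrtn*, neurturin, which supports the size and branching of enteric neurons, lies at chr17:56751325-56757530 (- strand). It was at 5.45 and 5.15 CPM in the control intestine and at 7.99 and 7.73 CPM in the *Eed* KO intestine. The groups did not overlap, but the log2 difference of 0.57 (SE 0.14) missed the test (edgeR, adjusted p = 0.0887). In the stomach all 4 libraries lay between 5.39 and 5.58 CPM, with a log2 difference of -0.00 (SE 0.14, adjusted p = 0.996), whose sign changed under other settings. Between the control organs the libraries overlapped (-0.05, SE 0.14, adjusted p = 0.943). In the adult it had 1 and 4 counts in controls and 0 and 3 in *Eed* KO, near the floor of 3 counts, so no fold was computed. The peak at its start had a fold enrichment of 5.50 and 5.41 in the control intestine and stomach and 4.83 and 4.78 in *Eed* KO. Its −log10 q was 40.7, 36.5, 34.6 and 42.0 in the same order.

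*Artn*, artemin, a ligand best known for sympathetic and sensory neurons, lies at chr4:117926162-117929763 (- strand). It was at 2.75 and 3.90 CPM in the control intestine, 4.04 and 6.25 in the *Eed* KO intestine, 4.23 and 5.61 in the control stomach and 3.41 and 8.39 in the *Eed* KO stomach. The *Eed* KO libraries of both organs varied most, and the groups overlapped in the stomach. No embryonic comparison of *Artn* passed the test, with log2 differences of 0.63 (SE 0.44, adjusted p = 0.658) for the intestine and 0.26 (SE 0.43, adjusted p = 0.763) for the stomach, both of which turned negative in DESeq2 with 1 spike-in factor. Between the control organs it was -0.57 (SE 0.44, adjusted p = 0.652). In the adult it was at 7.90 and 8.76 CPM in controls and at 4.11 and 4.56 CPM in *Eed* KO. These did not overlap, but the log2 difference of -0.94 (SE 0.36) missed the test (adjusted p = 0.11). Peaks at its start had fold enrichments of 3.39 to 3.74 in the 4 lists.

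*Bdnf*, the neurotrophin that signals through TRKB, lies at chr2:109674700-109727007 (+ strand) and has several alternative first exons. The 250 bases upstream of its first and last RefSeq starts are printed because enrichment was lowest at the first and highest at the last of the starts with a peak, and because *Bdnf* passed the test in 2 comparisons. Capitals mark CG dinucleotides, 9 in the first and 7 in the last. The windows are chr2:109674450-109674699 and chr2:109722671-109722920, RefSeq GRCm38.p6, + strand, 5′ to 3′.
Bdnf first start: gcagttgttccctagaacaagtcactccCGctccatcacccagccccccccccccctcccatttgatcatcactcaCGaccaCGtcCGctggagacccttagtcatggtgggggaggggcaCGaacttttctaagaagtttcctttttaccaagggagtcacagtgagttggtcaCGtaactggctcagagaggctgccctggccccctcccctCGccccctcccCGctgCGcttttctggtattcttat
Bdnf last start: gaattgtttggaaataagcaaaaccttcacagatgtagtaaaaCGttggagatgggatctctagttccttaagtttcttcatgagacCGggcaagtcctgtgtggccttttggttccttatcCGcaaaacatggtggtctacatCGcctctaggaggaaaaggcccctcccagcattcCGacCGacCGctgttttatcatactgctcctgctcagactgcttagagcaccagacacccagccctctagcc
Peaks near the first start ended before it and covered 0 bases of its window in all 4 lists, while at the last start they covered 124, 138, 161 and 122 of the 250 bases in the control intestine, *Eed* KO intestine, control stomach and *Eed* KO stomach.

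*Bdnf* was at 21.5 and 18.7 CPM in the control intestine and at 6.90 and 6.88 CPM in the control stomach. The intestine was 1.55 higher on the log2 scale (SE 0.13, edgeR, adjusted p = 0.000729), 2.92-fold. It was the only ligand of the 6 to pass in this comparison, where 5.07% of all genes passed in either direction, 1.68% higher and 3.39% lower in the intestine. The *Eed* KO intestine was at 16.1 and 15.2 CPM, and the log2 difference of -0.36 (SE 0.12) missed the test (adjusted p = 0.223). The *Eed* KO stomach was at 7.83 and 8.04 CPM, with a log2 difference of 0.20 (SE 0.13, adjusted p = 0.399). No embryonic groups of *Bdnf* overlapped in their CPM.

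In the adult *Bdnf* was at 13.03 and 12.3 CPM in controls and at 94.6 and 134 CPM in *Eed* KO. It rose by 3.18 on the log2 scale (SE 0.24, edgeR, adjusted p = 0.000286), 9.05-fold, from a mean of 12.6 ± 0.541 to 115 ± 28.1 CPM (SD, n = 2 each) and from 178 and 175 counts to 943 and 1738. The call was kept in all 9 alternatives other than spike-in scaling, with values from 2.90 to 3.39, and under that scaling too. In that comparison 19.6% of 15039 genes passed in either direction and 12.3% were higher, and 3 of the 5 ligands tested passed. Summed leukocyte markers also rose, from 519 to 611 CPM in controls to 9485 to 11321 CPM in *Eed* KO. Of these 6 markers 4 passed as higher and 1 as lower, and *Lyz2* alone had a mean of 7464 CPM in *Eed* KO. The neural sum given above rose as well, while the mesenchyme sum fell. *Elavl4* had the highest mean of the 12 neural markers in *Eed* KO, 9.10 CPM. Only 5 of the 12 could be tested, of which 1 passed as higher and 0 as lower. The part of these markers in the *Bdnf* result was not tested. Fold enrichment at the first *Bdnf* start was 2.56, 2.70, 2.72 and 3.15 in the control intestine, *Eed* KO intestine, control stomach and *Eed* KO stomach. At the last start it was 5.39, 5.28, 6.87 and 6.48, and at 1 RefSeq start between them no list held a peak.

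*Ntf3*, neurotrophin-3, which supports subsets of enteric neurons and glia through TRKC, lies at chr6:126101413-126166744 (- strand). The 250 bases upstream of the inner of its RefSeq starts, 1784 bp inside the gene, are printed because a single long peak covered them in all 4 lists and because *Ntf3* passed the test in the adult. Capitals mark CG dinucleotides, 14 here, at an observed to expected ratio of 0.838 against a median of 0.374 over all windows. The window is chr6:126164961-126165210, RefSeq GRCm38.p6, - strand, 5′ to 3′.
Ntf3 inner start: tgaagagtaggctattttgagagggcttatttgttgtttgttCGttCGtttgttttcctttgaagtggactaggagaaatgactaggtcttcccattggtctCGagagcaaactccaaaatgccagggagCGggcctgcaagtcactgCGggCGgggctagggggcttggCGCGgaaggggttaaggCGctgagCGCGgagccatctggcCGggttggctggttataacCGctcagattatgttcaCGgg
It held GGGCGG 1 time and CCAAT 1 time, motifs found in 32.7% and 33.9% of all windows.

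*Ntf3* was at 14.2 and 11.5 CPM in the control intestine, 16.4 and 13.4 in the *Eed* KO intestine, 18.0 and 15.3 in the control stomach and 14.003 and 9.60 in the *Eed* KO stomach. The intestinal groups overlapped and the stomach groups did not. No embryonic comparison of *Ntf3* passed the test, with log2 differences of 0.21 (SE 0.22, adjusted p = 0.831) for the intestine, -0.49 (SE 0.22, adjusted p = 0.228) for the stomach and -0.37 (SE 0.22, adjusted p = 0.493) between the control organs. In the adult it was at 115 and 112 CPM in controls and at 28.9 and 24.6 CPM in *Eed* KO. It fell by 2.09 on the log2 scale (SE 0.20, edgeR, adjusted p = 0.000592), 4.25-fold, from a mean of 114 ± 2.53 to 26.7 ± 3.05 CPM (SD, n = 2 each), where 7.23% of all genes were lower. The mesenchyme markers summed to less in the same libraries, with 3 of the 6 tested passing as lower and 0 as higher. Smooth muscle markers summed to more, with 3 of 6 passing as higher and 0 as lower, and so did leukocyte markers. The part of these markers in the result was not tested. Peaks at its start had fold enrichments of 2.68 to 2.77 and lengths of 6114 to 6169 bp, the longest at any ligand.

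*Edn3*, endothelin-3, lies at chr2:174760619-174784042 (+ strand). The 250 bases upstream of its start are printed because peaks reached into them in all 4 lists, over 108 and 149 bases in the control and *Eed* KO intestine and 108 and 175 bases in the control and *Eed* KO stomach, and because *Edn3* passed the test in the adult. Capitals mark CG dinucleotides, 7 here. The window is chr2:174760369-174760618, RefSeq GRCm38.p6, + strand, 5′ to 3′.
Edn3 promoter: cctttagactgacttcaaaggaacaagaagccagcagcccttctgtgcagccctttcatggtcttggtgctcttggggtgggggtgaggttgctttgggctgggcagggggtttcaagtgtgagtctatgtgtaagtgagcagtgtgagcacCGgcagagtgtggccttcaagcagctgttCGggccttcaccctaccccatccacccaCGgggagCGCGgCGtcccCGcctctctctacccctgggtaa
None of the motifs searched on both strands was in this window, which were the TATA box (TATAAA), the GC box (GGGCGG), the cyclic AMP response element (TGACGTCA), the CCAAT box and the E-box (CACGTG).

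*Edn3* was at 109.8 and 102 CPM in the control intestine, 72.8 and 72.1 in the *Eed* KO intestine, 60.1 and 50.4 in the control stomach and 33.1 and 39.3 in the *Eed* KO stomach. The 4 groups followed each other without overlap in that order. The intestine was 0.94 above the stomach in controls (SE 0.13, edgeR, adjusted p = 0.00511), just under the size of 1 and past it without stomach control replicate 1, at 1.07 (adjusted p = 0.0185). In the *Eed* KO stomach it was lower by a log2 difference of -0.61 (SE 0.13, adjusted p = 0.0284), again under that size. In the *Eed* KO intestine the log2 difference was -0.55 (SE 0.13, adjusted p = 0.0673), which missed the test. The difference between the organs was 0.06 (SE 0.18, adjusted p = 1). In the adult *Edn3* was at 38.2 and 29.4 CPM in controls and at 5.82 and 4.64 CPM in *Eed* KO, from 522 and 419 counts to 58 and 60. It fell by 2.69 on the log2 scale (SE 0.29, adjusted p = 0.000971), 6.47-fold, with means of 33.8 ± 6.25 and 5.23 ± 0.836 CPM (SD, n = 2 each), and the alternatives other than spike-in scaling gave -2.88 to -2.50. Mesenchyme markers summed to 2628 to 3733 CPM in the same *Eed* KO libraries against 8885 to 9189 CPM in controls. Smooth muscle and leukocyte markers summed to more in *Eed* KO. The part of these markers in the result was not tested.

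**Figure D3:**
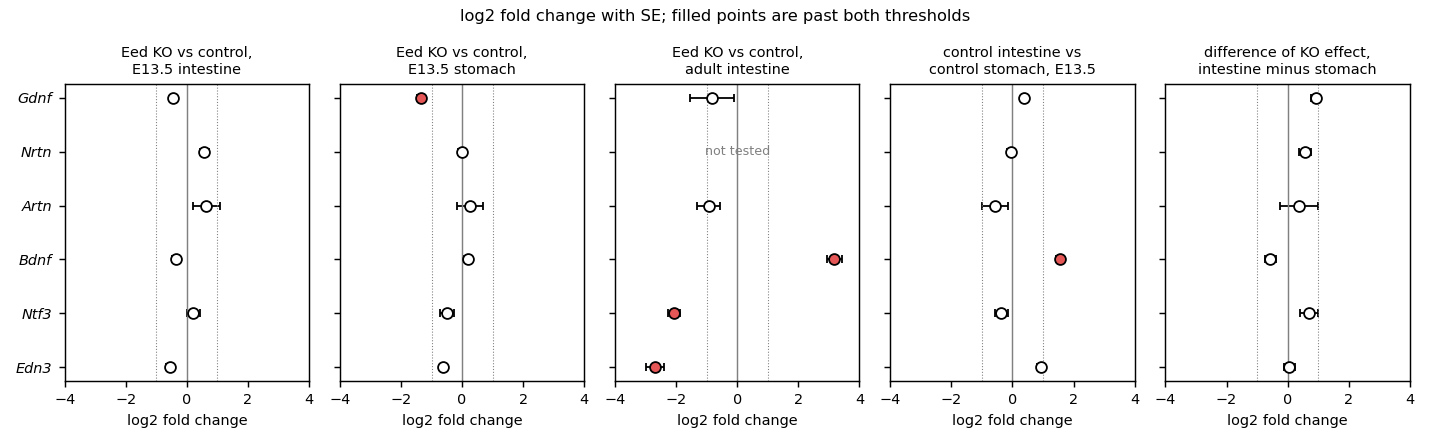
Log2 fold change of each ligand in each comparison, with its standard error as bars, dotted lines at the threshold of size and filled red points where both thresholds were passed. *Gdnf* in the stomach (-1.36), *Bdnf* between the control organs (1.55) and, in the adult, *Bdnf* (3.18), *Ntf3* (-2.09) and *Edn3* (-2.69) passed.

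In the *Eed* KO intestine none of the 6 ligands passed the test with edgeR or with DESeq2, where 2.61% of all genes did (2.38% higher and 0.228% lower), and 1 higher and 3 lower had an unadjusted p under 0.05. Libraries of the groups did not overlap for 5 of the 6, against 38.3% of all genes. In the stomach 4 of 6 did not overlap, against 55% of all genes, between the control organs 5 of 6, against 51.2%, and in the adult 4 of 5, against 65.3%. The difference of the *Eed* KO effect between the organs passed for 0 ligands with edgeR and 0 with DESeq2, where 0.462% of all genes did (0.191% higher and 0.271% lower), and 2 higher and 1 lower had an unadjusted p under 0.05. The other differences between the organs were 0.57 for *Nrtn* (adjusted p = 0.682), 0.37 for *Artn* (adjusted p = 1), -0.56 for *Bdnf* (adjusted p = 0.568) and 0.70 for *Ntf3* (adjusted p = 0.858). The median log2 change of the 6 was -0.08 in the *Eed* KO intestine and -0.25 in the *Eed* KO stomach, beside 0.01 and 0.00 over all genes, and -0.94 for the 5 tested in the adult, beside 0.00. The comparisons of the intestine, the stomach and the control organs share control libraries.

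Receptors, processing enzymes and other ligands of the same pathways were read from lists chosen by name, with earlier results of these data known. Of the 28 tested in the embryo besides the 6 ligands, 0 passed in the *Eed* KO intestine with edgeR, where 2.38% of all genes were higher and 0.228% lower, while DESeq2 gave 2 higher and 1 lower, and 4 higher and 4 lower had an unadjusted p under 0.05. Their median log2 change there was 0.19.

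In the *Eed* KO stomach 4 of the 28 were higher and 1 lower, with a median of 0.19, where 4.84% of all genes were higher and 0.808% lower. *Gfra2*, the neurturin co-receptor, rose from 4.29 and 7.19 CPM to 11.1 and 15.9 (log2 change 1.23, adjusted p = 0.0309). *Gfra3*, the artemin co-receptor, rose from 3.16 and 3.01 CPM to 8.69 and 5.57 (1.21, adjusted p = 0.0444). *Ngfr* rose from a mean of 7.84 CPM to 14.7 and 29.0 (1.48, adjusted p = 0.0318), and *Edn1*, an endothelin made by endothelium, from 0.116 and 0.0765 to 0.778 and 0.823 (3.03, adjusted p = 0.0188). The control values of *Edn1* were near the floor of 3 counts, 0.0879 and 0.0757 CPM in those libraries, so the size of its change is uncertain. *Edn2* fell from 2.90 and 3.29 CPM to 1.37 and 1.40 (-1.16, adjusted p = 0.043). Each of these 5 calls was lost without at least 1 of the stomach libraries. *Gfra3* (0.85 to 1.49), *Edn1* (2.75 to 3.33) and *Edn2* (-1.25 to -1.06) missed the test without any 1 of the 4 stomach libraries, with adjusted p up to 0.211, 0.136 and 0.197. *Gfra2* missed it without control replicate 1 (0.90, adjusted p = 0.138) and without *Eed* KO replicate 2 (0.95, adjusted p = 0.163). *Ngfr* missed it without control replicate 1 (1.51, adjusted p = 0.161), control replicate 2 (1.45, adjusted p = 0.181) or *Eed* KO replicate 2 (0.91, adjusted p = 0.12). *Gfra2*, *Ngfr* and *Edn2* also missed it with the spike-in factor of RUVg, *Gfra2* with only the 4 stomach libraries in the fit, and *Edn2* stood at 1.21 under spike-in scaling.

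Markers of other cells moved in the same stomach libraries. Of 12 markers of enteric neural crest, neurons and glia, 11 had a positive log2 difference, with a median of 1.02. The glial *S100b* rose (2.24, edgeR, adjusted p = 0.0106) and *Fabp7* fell (-1.96, adjusted p = 0.0139), while the summed level was 16.3 to 22.0 CPM in controls and 17.2 to 20.7 in *Eed* KO, with none of the 12 at 0. Endothelial markers summed to 24.3 to 44.8 CPM in *Eed* KO against 14.4 to 15.2. The part of either set in these results was not tested.

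Between the control organs, 3 of the 28 were higher and 4 lower in the intestine, where 1.68% of all genes were higher and 3.39% lower. *Ednrb*, the receptor of endothelin-3, was at 201 and 188 CPM in the intestine and at 49.0 and 57.6 in the stomach (log2 difference 1.87, SE 0.27, edgeR, adjusted p = 0.00668), the same direction as *Edn3*. *Gfra2* (1.48, adjusted p = 0.0161) and the neuregulin *Nrg1* (1.20, adjusted p = 0.0289) were also higher in the intestine. *Gfra1*, the GDNF co-receptor, was at 234 and 161 CPM in intestinal and at 478 and 387 CPM in stomach libraries (-1.13, adjusted p = 0.0167). *Gfra3* (-2.88, adjusted p = 0.00336), *Ntrk2* (-4.23, adjusted p = 0.0411) and the convertase *Pcsk5* (-1.66, adjusted p = 0.00985) were lower too. *Gfra3* was at 0.337 and 0.505 CPM in the intestine, and *Ntrk2* at 0.197 and 0.505 there and at 10.4 and 2.55 in the stomach. At such low levels the sizes of these 2 changes are uncertain. *Ret*, the signalling receptor of the GDNF family, had means from 0.522 to 3.35 CPM over all groups. Of the 6 endothelial markers 4 were higher in the control intestine, with sums of 15.3 to 19.4 CPM against 14.4 to 15.2, and their part in these results was not tested.

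Of these 7 calls between the control organs, that of *Gfra3* held when any 1 library was left out (-3.18 to -2.59). *Nrg1* missed the test without any 1 of the 4 control libraries (1.00 to 1.45, adjusted p up to 0.174). *Ednrb* missed it without stomach replicate 1 (1.76, adjusted p = 0.0611), and *Gfra1* without that library (-0.97, adjusted p = 0.1) or intestine replicate 2 (-0.88, adjusted p = 0.0799). *Gfra2* (1.16 to 1.91, adjusted p up to 0.0875) and *Ntrk2* (-5.01 to -2.89, adjusted p up to 0.286) missed it without either intestine library or stomach replicate 1. *Pcsk5* (-1.82 to -1.48, adjusted p up to 0.107) missed it without either intestine library or stomach replicate 2. Under spike-in scaling *Ntrk2* alone of the 7 passed.

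In the adult 1 of 24 tested was higher and 6 lower, where 12.3% of all genes were higher and 7.23% lower. *Ednrb* fell from 468 and 289 CPM to 112 and 128 (log2 change -1.66, adjusted p = 0.00568), and *Ednra*, the other endothelin receptor, fell from 205 and 169 to 86.4 and 69.7 (-1.26, adjusted p = 0.00663). *Pcsk5* fell from 259 and 231 CPM to 65.4 and 49.2 (-2.10, adjusted p = 0.000994), and *Pcsk6*, another convertase, from 64.9 and 54.2 to 7.83 and 11.4 (-2.63, adjusted p = 0.000799). *Gfra2* (-1.52, adjusted p = 0.00528) and the heparin-binding factor *Mdk* (-1.80, adjusted p = 0.00451) fell as well. *Sort1*, a sorting receptor for proneurotrophins, rose from 4.83 and 6.73 CPM to 13.4 and 12.1 (1.14, adjusted p = 0.0491), and that call held in 2 of 10 alternatives, being lost without any 1 of the 4 libraries (0.91 to 1.40, adjusted p up to 0.206). The other 6 calls held in 10 of 10. In the same libraries the summed mesenchymal markers were at 8885 to 9189 CPM in controls and 2628 to 3733 in *Eed* KO. Leukocyte and macrophage markers were at 519 to 611 and at 9485 to 11321 CPM, and smooth muscle markers at 1820 to 2257 and 3149 to 3707 CPM. The part of these markers in the receptor and convertase values was not tested.

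**Figure D4:**
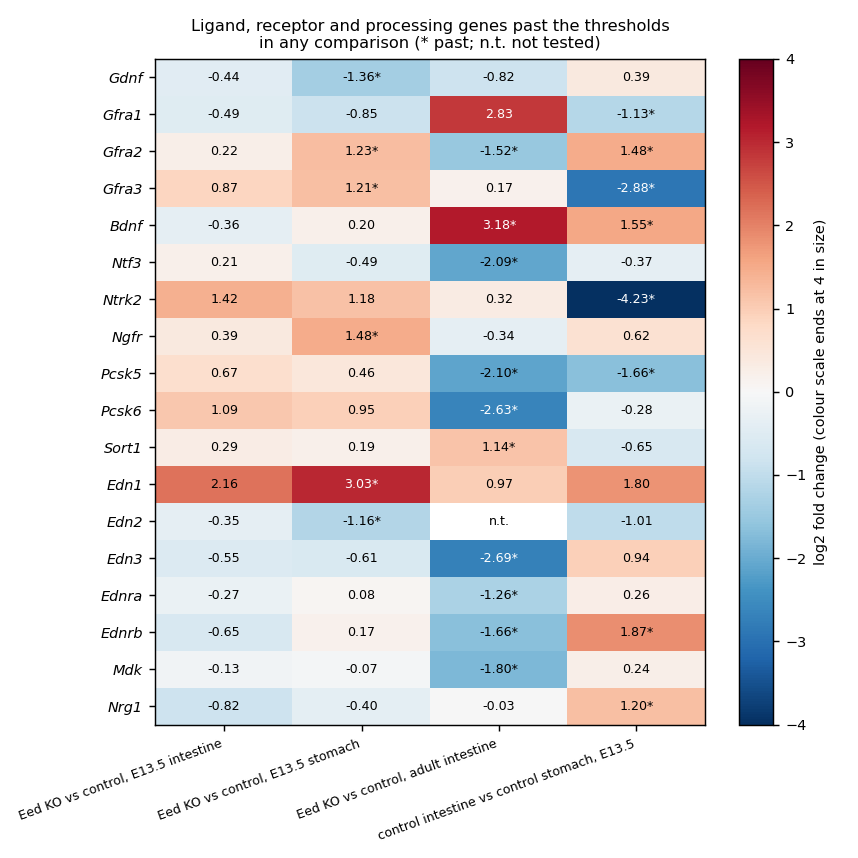
Log2 fold changes of the ligand, receptor and processing genes that passed both thresholds in at least 1 of the 4 comparisons, with asterisks where they passed. *Ednrb* reads 1.87 between the control organs and -1.66 in the adult, *Pcsk6* reads -2.63 in the adult, and *Ngfr* reads 1.48 in the stomach.

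For each ligand the 3 genes whose log2 CPM ran closest to it over the 8 embryonic libraries were taken among 13386 genes, by Pearson r. The libraries form 4 groups of 2, which every gene shares, so r is given as a description. They were *Samm50* (0.991), *Tomm40* (0.990) and *Chst15* (0.989) for *Gdnf*, and *Mapk14* (0.992), *Trpc1* (0.991) and *Neurl3* (0.989) for *Bdnf*. For *Edn3* they were *Cyp20a1* (0.988), *Gpsm3* (0.987) and *Lrrc8c* (0.982), and for *Ntf3* *Dnal4* (0.974), *Higd2a* (0.950) and *Vcpkmt* (0.944). *Nrtn* was followed by *Steap1* (0.942), *Kcnip4* (0.936) and *Gm13231* (0.934), and *Artn* by *Hfe* (0.951), *Cntn6* (0.947) and *Hhipl1* (0.946).

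Within 1000 bp of the annotated gene start, 6 of 6 ligands had a peak in each of the 4 lists, a share near the background, since 87.8% to 88.9% of the 16216 genes tested did. Enrichment was modest, with a ligand median of 3.27, 3.20, 3.30 and 3.45 in the control intestine, *Eed* KO intestine, control stomach and *Eed* KO stomach, against medians of 6.91, 6.46, 6.80 and 6.69 at all promoters with a peak. All 6 ligands lay below that median in each list, and 5, 5, 5 and 6 of them lay below the lower quartile. Peaks at *Edn3* had enrichments of 3.56, 3.77, 3.73 and 4.37, and those at *Ntf3* stayed within 2.68 to 2.77 in all 4. The lists hold pooled replicates and no read counts, so no difference between conditions could be tested.

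**Figure D5:**
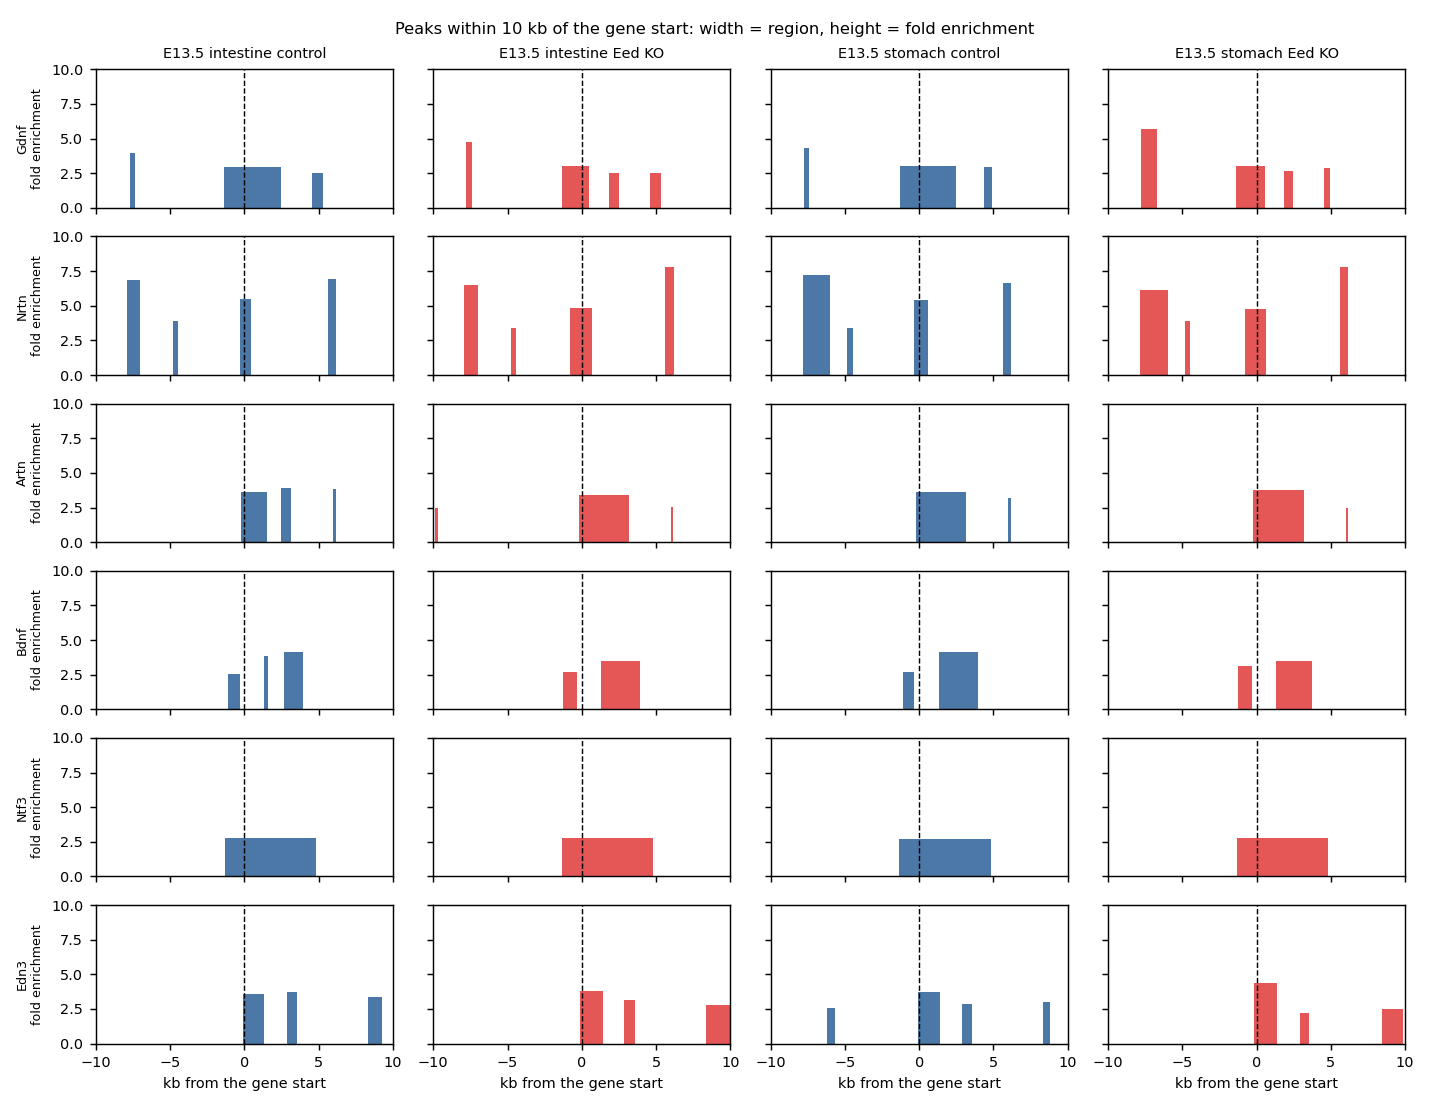
ATAC-seq peaks at the ligands in the 4 lists, by distance from the gene start, with their fold enrichment. The peaks at the *Gdnf* start are shorter in the 2 *Eed* KO lists (1790 and 1933 bp) than in the control lists (3811 and 3786 bp). In the *Eed* KO lists a separate peak begins 1811 and 1823 bp after the start, where the control peaks run on to 2440 and 2483 bp.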

How the data were processed

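RNA-seq libraries were stranded poly(A) libraries in the embryo and unstranded low-input libraries in the adult, with spike-in RNA. Per the labels and the study's methods, the authors trimmed reads with Trimmomatic 0.32, aligned them with STAR 2.5.1b to GRCm38/mm10 and counted them on GENCODE vM4 genes with featureCounts. The deposited counts are raw whole numbers per gene. For ATAC-seq the authors aligned reads with BWA 0.7.8, pooled the replicates of a condition and called broad peaks with MACS2 2.1.2. The deposited peak lists give a fold enrichment over the MACS2 background and, per peak, a −log10 q, with peaks down to a −log10 q near 1.

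TMM scaling and filterByExpr preceded the test, edgeR 4.0.16 (R 4.3.3, quasi-likelihood), with Benjamini-Hochberg adjustment over all genes tested (16218 embryonic, 15039 adult). The embryonic fit used all 8 libraries. Thresholds were an adjusted p under 0.05 (0.2 for the difference of effects) and a log2 change above 1 in size. Each standard error was derived from the F statistic. TPM used the gene lengths of the adult files. A promoter peak overlapped the 1000 bp on either side of the gene start by at least 1 bp. Spike-in counts stayed out of library sizes. Library depth is given with the results, and intervals or floors from counts would cover counting error only. The procedure was tested on simulated data. Alternatives were DESeq2 1.42.0 with and without 1 RUVg factor, spike-in and upper-quartile scaling, no filter and a replicate block. Others were a block of same-numbered organs within a genotype, fits of only the libraries compared, leaving out each library, and other peak thresholds. The study used DESeq2 after RUV-seq with a number of factors not given in the sources used here.

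The named genes were the 6 ligands, *Eed*, every listed receptor, ligand or processing gene past the thresholds in a comparison, and for each ligand the 3 genes of at least 1 CPM with the highest Pearson r. Marker lists covered mesenchyme, leukocytes and macrophages, enteric neural crest with neurons and glia, endothelium, smooth muscle, mesothelium, epithelium and erythroid cells. Some genes of these pathways are not reported here and were left out of the lists. The members and lists were chosen with earlier results of these data known. Promoter windows were the 250 bases before RefSeq starts (GRCm38.p6), searched on both strands.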

Additional observations from a re-analysis of the deposited data

Results flagged for a closer look

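The change of *Gdnf* in the *Eed* KO intestine less its change in the *Eed* KO stomach was 0.92 on the log2 scale (edgeR, adjusted p = 0.0826), so the difference between the organs passed the threshold of 0.2 for that contrast but not its size of 1. In each organ both *Eed* KO libraries lay below both controls.

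The log2 difference of *Artn* in *Eed* KO had opposite signs at the 2 ages, 0.63 in the embryonic intestine and -0.94 in the adult intestine, with libraries that did not overlap at either age. Neither passed its own test (edgeR, adjusted p = 0.658 and 0.11), and the embryonic value was -0.45 with the spike-in factor of RUVg. The signs of *Bdnf* were also opposite, -0.36 in the embryonic intestine, which did not pass (adjusted p = 0.223), and 3.18 in the adult intestine. These differences between ages were not tested, since the libraries differ in kit, strandedness, Cre line and age and were scaled separately.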

How the results depend on the processing

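Of 645 alternative values of 84 results, 594 kept the direction and the side of the threshold or stayed within a set margin. The margin was the replicate spread for levels and a set ratio for counts. These 594 included 100 ligand levels. Leaving a library out of a pair cannot move a level past that spread, so such values were kept by construction. Of the other 51, 24 came from spike-in totals as library sizes. The cause of these changes was not tested. Under that scaling the median gene changed by 1.84 in the *Eed* KO intestine, 2.39 in the *Eed* KO stomach, 0.30 between the control organs, -0.54 for the difference of effects and -0.42 in the adult. Upper-quartile scaling moved it by -0.15 in the adult. With spike-in scaling, the *Eed* KO intestine gave *Gdnf* 1.42, *Nrtn* 2.404, *Artn* 2.62, *Bdnf* 1.46, *Ntf3* 1.98, *Edn3* 1.30 and *Eed* -0.23, with 3 ligands called higher. The *Eed* KO stomach gave *Gdnf* 1.03, *Nrtn* 2.38, *Artn* 2.87, *Bdnf* 2.60, *Ntf3* 1.79, *Edn3* 1.85 and *Eed* 0.14, with 5 ligands called higher and 0 lower. Between the control organs it gave *Nrtn* 0.25, *Eed* 0.23 and *Bdnf* 1.85 (adjusted p = 0.645), with 0 ligands called higher, and the difference of effects gave *Artn* -0.24, *Edn3* -0.55 and *Eed* -0.38.

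With 1 RUVg factor in DESeq2, *Artn* was -0.45 in the intestine and -1.19 in the stomach, *Nrtn* was 0.0192 and *Ntf3* 0.0453 in the stomach, and *Eed* was 0.0572 between the control organs and -0.0508 for the difference of effects. *Nrtn* in the stomach was 0.00903 with upper-quartile scaling and 0.000119 with only the 4 libraries compared. Leaving out 1 library at a time gave -0.0311 to 0.0235 for *Nrtn* and -0.53 to 0.77 for *Artn* in the stomach, and -0.0712 to 0.189 for *Edn3*, -0.14 to 1.16 for *Artn* and -0.18 to 0.44 for *Eed* in the difference of effects. It gave -1.35 to 0.0431 for *Gdnf* in the adult, and 0.825 to 1.07 for *Edn3* between the control organs, where 1 to 2 ligands were called higher, the highest without stomach control replicate 1. Group means of CPM by library total without TMM were 91.9 for *Gdnf* in the control intestine, 5.60 for *Nrtn* and 8.10 for *Bdnf* in the *Eed* KO stomach, 9.85 for *Artn*, 14.96 for *Bdnf* and 134 for *Ntf3* in adult controls, and 3.65 for *Artn* and 22.6 for *Ntf3* in adult *Eed* KO.

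For each library the deviation of log2 CPM from its group mean was taken over the genes tested. Between same-numbered libraries these deviations correlated at 0.340 for the control organs and 0.714 for the *Eed* KO organs. They correlated at 0.104 to 0.240 between embryonic genotypes and at -0.0734 in the adult. Nothing in the labels ties the numbers to shared animals. The study's methods describe separating the stomach and intestine of each animal, and the main fit treated all libraries as independent. A replicate block gave *Gdnf* -1.36 in the stomach and changed no ligand call. A block that pooled same-numbered organs of a genotype changed no ligand call between the control organs or in the difference of effects. In that difference it gave 171 higher and 179 lower genes, against 31 and 44 in the main fit. Over all genes the counts of higher and lower genes in the *Eed* KO intestine were 386 and 37, with 628 and 57 in DESeq2, 322 and 159 with the RUVg factor, 734 and 66 without the filter, 217 and 27 with only the 4 libraries compared, and as few as 60 and 14 without control replicate 1. In the *Eed* KO stomach they were 785 and 131, and 383 and 311 with the RUVg factor. In the adult they were 1856 and 1088, and 1154 and 1321 with spike-in scaling. With peaks of a −log10 q of at least 5, between 5 and 6 ligands had a promoter peak, and 4 to 5 had one where 50% of the peak lay in the window.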
